A study of Mus musculus with 2 samples.

Results

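The axon guidance ligands and receptors were the semaphorins of classes 3 to 7, plexins, neuropilins, ephrins, Eph receptors, Slits, Robos, netrins, Dcc and the Unc5 receptors. Members were taken by gene name, as every array gene whose symbol matches one of these family names, which gave 74 of 37060 gene names. The choice was made with earlier results of these data known. Of these 74 names, 70 are guidance genes (35 ligands, 33 receptors and 2 netrin-G genes). The other 4 match by name but were not counted as guidance genes: Plxna4os1 and Plxna4os2, antisense RNAs of Plxna4, and Unc50 and Unc5cl. Whole-brain total RNA was profiled on 1-colour Agilent arrays, with 1 array per genotype. The samples were a GPHR F/F;Nes mouse and its GPHR F/F control littermate, both C57BL/6J and at postnatal day 10. Both animals carried the GPHR F/F alleles, and the labels do not spell out the Nes element further. GPHR, the Golgi pH regulator, is a Golgi membrane protein encoded in the mouse by Gpr89, and the series asks what its loss does in the brain.

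Guidance cues steer growing axons and later shape synapses and blood vessels. Semaphorins act mainly through plexins, with neuropilins as co-receptors for the secreted class 3. Ephrin-A ligands are tethered by a lipid (GPI) anchor and bind mostly EphA receptors, whereas ephrin-B ligands span the membrane and bind mostly EphB receptors. Slits repel axons through Robo receptors, and netrin-1 attracts axons through Dcc or repels them through Unc5 receptors. In the postnatal brain these systems take part in the last steps of tract formation, in axon pruning and in dendrite and synapse growth.

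Each probe is a 60-base oligonucleotide, and several of the differences described here rest on a single one. The last 30 bases of the probes behind the largest differences are given first. Capitals mark AATAAA, the polyadenylation signal, where it stands on the probe strand. It was searched as AATAAA on both strands with no overlap with the other motifs. An AATAAA on the opposite strand reads TTTATT here, which stands in the Epha2 and Sema4a stretches and is not marked.
Efna2: aagcaacactttgcAATAAActcatttttt
Sema3b: taaagtaacgcAATAAAcacattatcagct
Epha2: ttacagatttcttttattgggttgtttttt
Epha1: gcctttgtttataaagggggtggatgggta
Sema4a: ctgcttgtcacagacaatttattttttatt
These probes lie on the array's mm9 coordinates at chr10:79652324-79652383 (Efna2, plus strand), chr9:107500686-107500745 (Sema3b, minus strand), chr4:140885139-140885198 (Epha2, plus strand), chr6:42308583-42308642 (Epha1, minus strand) and chr3:88239906-88239965 (Sema4a, minus strand). All 5 were designed to RefSeq mRNAs. On the probe strand AATAAA stood in 14.2% of the 176 guidance probes and in 9.77% of all 56603 probes. On the opposite strand it stood in 7 guidance probes and in 3.85% of all probes. The exon or untranslated region under each probe was not analysed here.

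The members' other sequences shown are those where probes of a gene went different ways or share a repeat. Sema3a had 3 probes, of which probe 1 was designed to an Ensembl transcript and probes 2 and 3 to RefSeq mRNAs. They lie on the plus strand at chr5:13524613-13524672, chr5:13600898-13600957 and chr5:13602449-13602508.
Sema3a probe 1: gtcatctatccagccttcttatatttcttt
Sema3a probe 2: cacttcacctagaaagtcccaatttctttg
Sema3a probe 3: tggagagaaaaatgtaacgatattgctgct
The only Ephb3 probe (chr16:21223165-21223224, plus strand) and 1 of 3 Nrp2 probes (chr1:62843061-62843120, plus strand) hold runs of GT, 32 bases long in Ephb3 and 28 bases long in Nrp2. Capitals mark the run in the 30 bases shown.
Ephb3: GTGTGTGTGTGTGTGTGTGTGTGTGTGTGT
Nrp2 probe 2: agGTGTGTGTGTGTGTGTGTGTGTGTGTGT
A run of 12 bases of GT (GTGTGTGTGTGT) was found on the probe strand of 3 guidance probes, or 1.70%, against 0.186% of all probes.

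All levels are log2 processed signal minus the 75th percentile of the same array, and a difference is the level in GPHR F/F;Nes minus the level in GPHR F/F. That percentile was 173 units of scanner signal in GPHR F/F;Nes and 259.5 units in GPHR F/F, so a gene with the same raw signal on both arrays has a difference of 0.58. With n = 1 per genotype the spread between animals is not known, and no test or p-value is given. Each ± value is a technical error that the scanner software reports, which covers neither animals nor disagreement between probes. The share of probes well above background was 69.2% in GPHR F/F;Nes and 67.0% in GPHR F/F, and 0 were saturated. The direction depends on the scaling: the median of all 23946 measured genes was 0.07, but -0.20 when every array was centred on its median and -0.88 with the arrays scaled to spike-in RNAs. With spike-in scaling, 62 of 68 measured members were below 0, so that higher and lower are relative to the 75th percentile throughout. Gpr89 itself had 20.04 units in GPHR F/F;Nes and 43.3 units in GPHR F/F, a difference of -0.53 ± 0.22. The 6 neuron markers were measured on both arrays and all 6 were below 0 (median -0.15, and -0.06 after loess correction on the signal level). Xist was above background on the GPHR F/F;Nes array and not on the other, and the Y-linked Eif2s3y, Ddx3y and Uty only on the GPHR F/F array, so a sex difference and genotype cannot be told apart.

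Of the 70 guidance genes, 68 were measured, that is, had a probe well above background on both arrays. The measured members were on balance slightly lower than all genes, with a median difference of -0.11, against 0.07 for all genes. Of these 68 genes, 41 were below 0 and 27 above 0, whereas 43.0% of all genes were below 0 and 57.0% above. At least 2-fold higher were 5 members, Efna2, Epha2, Sema3b, Epha1 and Ephb4, where 7.94% of all genes were. At least 2-fold lower was 1 member, Sema4a, where 1.37% of all genes were. At 1.5-fold the counts were 10 higher and 12 lower members, against 18.2% and 5.69% of all genes. The share of members at least 1.5-fold lower was thus above that of all genes, and the share at least 1.5-fold higher was below it. In whole-brain RNA, fewer cells of a type and less RNA per cell cannot be told apart.

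**Figure D1:**
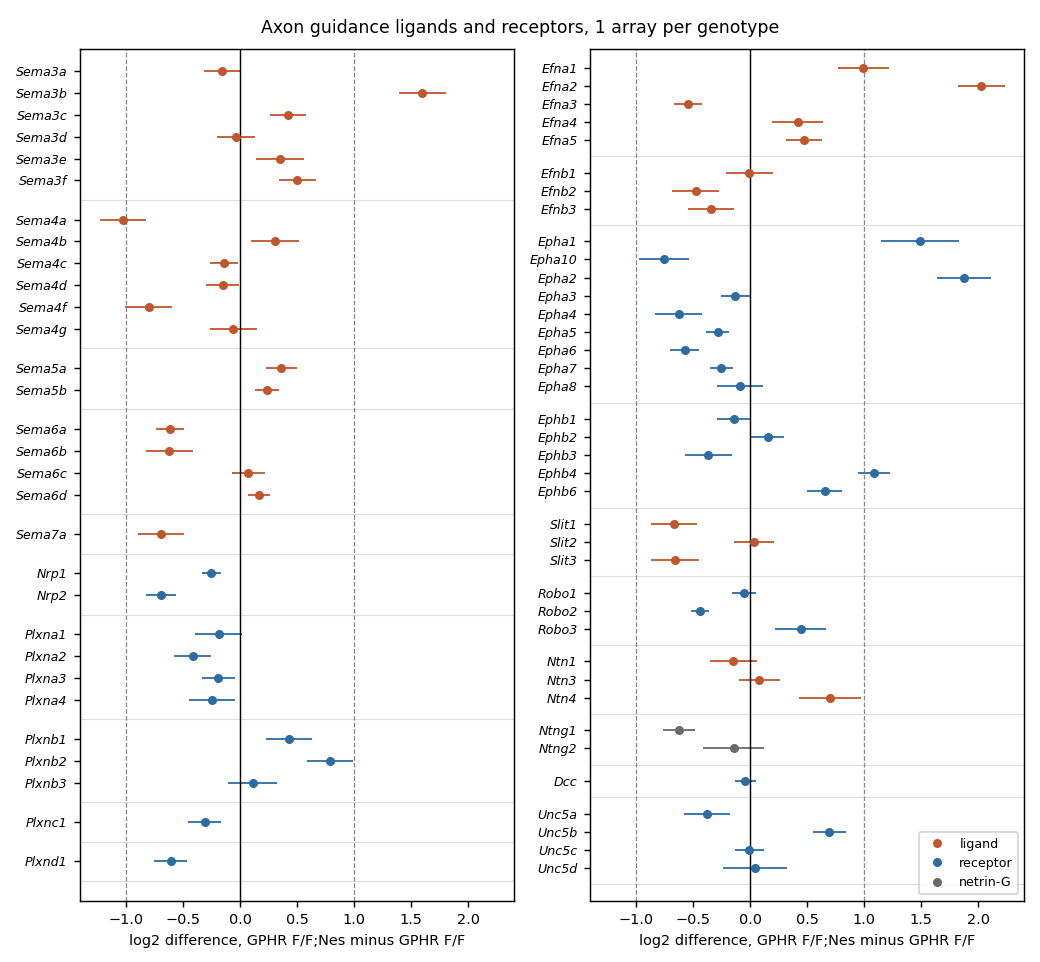
The log2 difference (level in GPHR F/F;Nes minus level in GPHR F/F) is on the x axis for each of the 68 measured members, grouped by family, with ligands, receptors and netrin-G genes in different colours, dashed lines at 2-fold and bars for the technical error (1 array per genotype). The points of Plxna and Nrp genes lie left of 0, and Efna2 at 2.03 lies farthest right.

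The ligands had a median of -0.01 (16 of 33 above 0) and the receptors a median of -0.14 (11 of 33 above 0). Among the ligands, the GPI-anchored group of 5 ephrin-A genes and Sema7a had a median of 0.44 with 4 of 6 above 0, which was 0.17 with median centring and 0.09 after normexp correction. Normexp correction here added an offset of 50 units to each signal before quantile normalization, which by itself draws the differences of dim genes towards 0. The 12 measured secreted ligands had a median of 0.06, with 7 above 0. That median turned below 0 with the brightest probe (-0.21), median centring (-0.22), loess correction (-0.14) and normexp correction (-0.08). The 15 transmembrane ligands had a median of -0.14, with 10 below 0.

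Of the 6 measured class 3 semaphorins, the secreted ligands of neuropilins, 4 were above 0. Sema3b had 245 units in GPHR F/F;Nes and 121 units in GPHR F/F, a normalized difference of 1.60 ± 0.20 or 3.03-fold. It was the largest difference of any semaphorin in either direction, and genes within 0.25 log2 units of its level had a median of -0.03. Sema3f, a ligand that acts mainly through Nrp2, had 99.7 units in GPHR F/F;Nes and 106 units in GPHR F/F, a difference of 0.50 ± 0.16 after scaling. Both of its probes were above 0. Sema3a, a repellent for many cortical and sensory axons, had 40.1 units in GPHR F/F;Nes and 67.2 units in GPHR F/F, a difference of -0.16 ± 0.16. Its probes did not go one way: probe 3 gave -0.90 and probe 2 gave -0.75, while probe 1 gave 1.16. Probe 1 was the dimmest, with 10.2 units in GPHR F/F;Nes and 6.86 units in GPHR F/F. Probe 3 was the brightest, with 163 units in GPHR F/F;Nes and 456 units in GPHR F/F. Sema3e, the ligand of Plxnd1, had 23.9 units in GPHR F/F;Nes and 28.05 units in GPHR F/F, a difference of 0.35 ± 0.21 that was -0.07 after normexp correction and -0.27 in its brightest probe. Sema3d had 21.5 units in GPHR F/F;Nes and 33.1 units in GPHR F/F, a difference of -0.04 ± 0.17. Sema3c was at 0.42. Sema3g had no value because its 2 probes were each above background on 1 array only. Probe 1 had 6.68 units in GPHR F/F;Nes and 6.36 units in GPHR F/F, a bound of 1.57-fold higher. In log2 that bound is 0.65, close to the 0.58 that equal raw signals give. Probe 2 had 2.61 units in GPHR F/F;Nes and 11.95 units in GPHR F/F, a bound of 1.58-fold lower. Their technical errors were 0.44 and 0.71, which the bounds do not take in.

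Class 4 semaphorins, which span the membrane and act mainly through B-type plexins, were below 0 for 5 of 6 genes. Sema4a had 768 units in GPHR F/F;Nes and 2341 units in GPHR F/F, a difference of -1.03 ± 0.20 or 2.04-fold lower. It stands just past the 2-fold line and was at -0.93 after quantile normalization and after loess correction, and at -0.90 after normexp correction. Sema4f had 161 units in GPHR F/F;Nes and 419 units in GPHR F/F, a difference of -0.80 ± 0.20. Sema4c had 242 units in GPHR F/F;Nes and 399 units in GPHR F/F, a difference of -0.14 ± 0.12. Sema4d, the main ligand of Plxnb1, was at -0.15, and at 0.03 from curated RefSeq mRNA probes alone. The one gene of the class above 0 was Sema4b at 0.31. Sema4g, at -0.06, turned to 0.01 after loess and normexp correction.

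The remaining semaphorins were split. Sema7a, a GPI-anchored ligand of Plxnc1 that promotes axon growth, had 383 units in GPHR F/F;Nes and 925 units in GPHR F/F, a difference of -0.69 ± 0.20. Its receptor Plxnc1 was also below 0, as given below. Sema6a and Sema6b, transmembrane ligands of A-type plexins, were at -0.61 ± 0.12 and -0.62 ± 0.20, and all of their probes were below 0. Sema6d had 94.0 units in GPHR F/F;Nes and 126 units in GPHR F/F, a difference of 0.16 ± 0.10. Both it and Sema6c (0.07) were below 0 with median centring. Sema5a had 110.4 units in GPHR F/F;Nes and 129 units in GPHR F/F, a difference of 0.36 ± 0.14 that was -0.13 from curated RefSeq mRNA probes alone. Sema5b was at 0.24, and at -0.04 with median centring.

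Ephrin-A genes were above 0 for 4 of 5 members, with a median of 0.47 that was 0.20 with median centring and 0.10 after normexp correction. Efna2, a cue for topographic maps of retinal axons, had 1225 units in GPHR F/F;Nes and 450.1 units in GPHR F/F. Its raw signal was thus higher on the array with the lower 75th percentile. The difference was 2.03 ± 0.20 or 4.07-fold, the largest of all 68 measured members. Genes at a similar level had a median of -0.10. Efna1, a ligand of Epha2, had 39.3 units in GPHR F/F;Nes and 29.6 units in GPHR F/F, a difference of 0.99 ± 0.22 that stands just short of 2-fold and was 0.25 after normexp correction. Efna5, a repellent in retinal and cortical maps, had 103 units in GPHR F/F;Nes and 112 units in GPHR F/F, a difference of 0.47 ± 0.16. Its brightest probe alone was at 0.03. Efna3 went the other way, with 50.7 units in GPHR F/F;Nes and 111 units in GPHR F/F, a difference of -0.55 ± 0.12.

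The 3 ephrin-B genes were below 0, although Efnb1 (-0.01) turned to between 0.07 and 0.09 after quantile, loess and normexp correction. Efnb2, the ligand of Ephb4, had 783 units in GPHR F/F;Nes and 1633 units in GPHR F/F, a difference of -0.48 ± 0.20. Efnb3, a midline barrier for corticospinal axons, had 2758 units in GPHR F/F;Nes and 5245 units in GPHR F/F, a difference of -0.35 ± 0.20. Ephrin-A and ephrin-B genes thus had medians on opposite sides of 0, at 0.47 and -0.35, and this difference between classes was not tested.

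Slit genes, whose products repel axons, had a median of -0.66. Slit1 had 693 units in GPHR F/F;Nes and 1649 units in GPHR F/F, a difference of -0.67 ± 0.20. Slit3 had 44.9 units in GPHR F/F;Nes and 106 units in GPHR F/F, a difference of -0.66 ± 0.21. Slit2 stood near 0: it had 60.2 units in GPHR F/F;Nes and 88.0 units in GPHR F/F, a difference of 0.03 ± 0.17 from 2 of its 7 probes, and turned negative with median centring, quantile normalization and loess correction.

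The netrins were split. Ntn1, the attractant that acts through Dcc, had 84.5 units in GPHR F/F;Nes and 140 units in GPHR F/F, a difference of -0.15 ± 0.21. Ntn4, a netrin of basement membranes, had 15.0 units in GPHR F/F;Nes and 13.8 units in GPHR F/F, a difference of 0.70 ± 0.27, which was 0.06 after normexp correction. Ntn3 had 20.9 units in GPHR F/F;Nes and 29.6 units in GPHR F/F, a difference of 0.08 ± 0.18 that was below 0 under the 5 other scalings. Ntn5 was not well above background on either array. The netrin-G genes encode GPI-anchored synaptic proteins that do not bind Dcc. Ntng1 had 84.2 units in GPHR F/F;Nes and 194 units in GPHR F/F, a difference of -0.62 ± 0.14. Ntng2 was at -0.14 ± 0.27 from 1 of its 4 probes, with 10.7 units in GPHR F/F;Nes and 17.7 units in GPHR F/F. Its probes 1 and 3 were above background in GPHR F/F alone, with bounds of 1.41-fold and 1.19-fold lower. Their technical errors were 0.60 and 0.47 in log2, which the bounds do not take in.

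**Figure D2:**
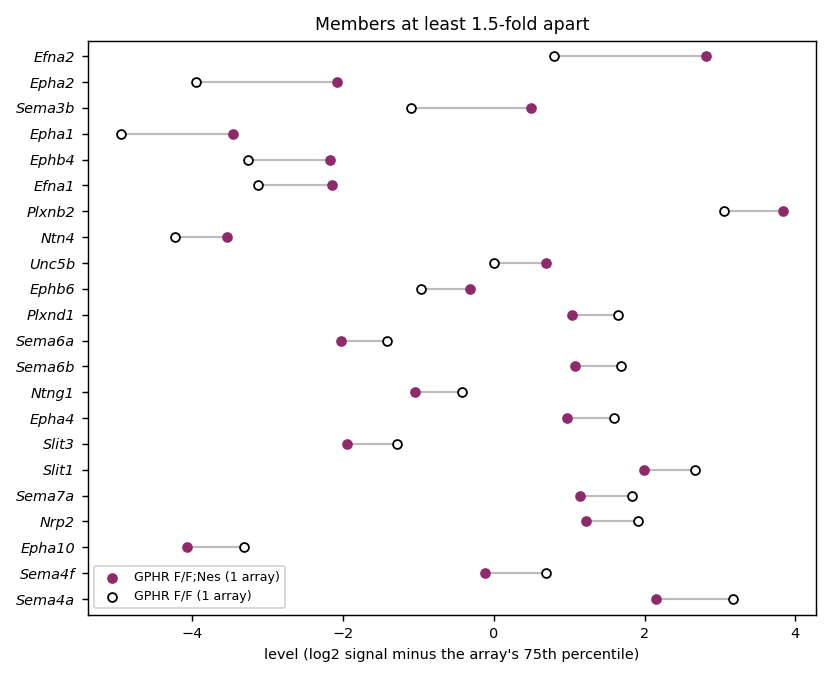
The x axis is the level (log2 signal minus the array's 75th percentile) of the 22 members at least 1.5-fold apart, with GPHR F/F;Nes as filled points and GPHR F/F as open points, 1 array each. The filled point lies to the right for 10 genes, from Efna2 to Ephb6, and to the left for 12 genes, from Plxnd1 to Sema4a.

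Among the receptors, A-type and B-type plexins lay on opposite sides of 0. All 4 A-type plexins, the signalling partners of neuropilins, were between -0.42 and -0.19, and they stayed below 0 under each scaling tried. Plxna1 had 539.9 units in GPHR F/F;Nes and 921 units in GPHR F/F, a difference of -0.19 ± 0.20. Plxna2 had 211 units in GPHR F/F;Nes and 422 units in GPHR F/F, a difference of -0.42 ± 0.16. Both neuropilins were also below 0. Nrp1, the co-receptor of Sema3a, had 54.7 units in GPHR F/F;Nes and 97.4 units in GPHR F/F, a difference of -0.25 ± 0.09 with 6 of 7 probes below 0. Nrp2 had 405 units in GPHR F/F;Nes and 979.9 units in GPHR F/F, a difference of -0.69 ± 0.13. Its GT-repeat probe gave -0.35, and without that probe the difference was -0.87.

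All 3 B-type plexins, receptors of class 4 semaphorins, were above 0 at this scaling, although Plxnb3 was below 0 under the 5 other scalings and all 3 were below 0 with spike-in scaling. Plxnb2 had 2485 units in GPHR F/F;Nes and 2154 units in GPHR F/F, a difference of 0.79 ± 0.20. Plxnb1, the receptor of Sema4d, had 546 units in GPHR F/F;Nes and 607 units in GPHR F/F, a difference of 0.43 ± 0.20. Plxnb3 was dim and stood at 0.11 ± 0.21. Plxnd1, which binds Sema3e, went the other way, with 357 units in GPHR F/F;Nes and 814 units in GPHR F/F, a difference of -0.61 ± 0.14. Plxnc1, the receptor of Sema7a, had 438 units in GPHR F/F;Nes and 814 units in GPHR F/F, a difference of -0.31 ± 0.14.

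EphA receptors were below 0 for 7 of 9 genes, and the 2 above 0 were both past 2-fold. Epha2 had 41.0 units in GPHR F/F;Nes and 16.8 units in GPHR F/F, a difference of 1.87 ± 0.24 or 3.66-fold. Epha1 had 15.7 units in GPHR F/F;Nes and 8.39 units in GPHR F/F, a difference of 1.49 ± 0.34 or 2.80-fold. Both receptors are best known from epithelia, and both were dim here, where like-level genes had medians of 0.29 and 0.46. After normexp correction, whose offset of 50 units is larger than their signals, they were at 0.57 and 0.19. The remaining EphA genes were below 0. Epha4, which binds both ephrin classes, had 339 units in GPHR F/F;Nes and 784 units in GPHR F/F, a difference of -0.63 ± 0.20. Epha10, a receptor without kinase activity, had 10.3 units in GPHR F/F;Nes and 26.0 units in GPHR F/F, a difference of -0.76 ± 0.22. It was at least 2-fold lower with median centring (-1.03), quantile normalization (-1.14) and loess correction (-1.13), and at -0.27 after normexp correction. Epha6 followed at -0.57, Epha5 at -0.29, Epha7 at -0.25, Epha3 at -0.13 and Epha8 at -0.09.

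EphB receptors were split, with 3 of 5 above 0. Ephb4, the partner of ephrin-B2 in blood vessels, had 38.3 units in GPHR F/F;Nes and 27.0 units in GPHR F/F, a difference of 1.09 ± 0.14 or 2.12-fold. All 3 of its probes were above 0, at 0.31, 1.29 and 1.66. It was short of 2-fold with median centring (0.81), after quantile normalization and loess correction (0.84 each) and after normexp correction (0.28), and like-level genes had a median of 0.24. Ephb6, which lacks kinase activity, had 140 units in GPHR F/F;Nes and 133 units in GPHR F/F, a difference of 0.65 ± 0.15 from probes at 0.08 and 1.22. Ephb2, a synaptic receptor, had 237 units in GPHR F/F;Nes and 319 units in GPHR F/F, a difference of 0.15 ± 0.15 that was -0.12 with median centring. Ephb1 had 152 units in GPHR F/F;Nes and 251 units in GPHR F/F, a difference of -0.14 ± 0.15. Ephb3 was at -0.37 ± 0.20, with 3859 units in GPHR F/F;Nes and 7448 units in GPHR F/F. The repeat probe of Nrp2 had nearly the same signals, 3876 units in GPHR F/F;Nes and 7386 units in GPHR F/F. The Ephb3 value therefore rests on letters that a probe of another gene shares.

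Robo1 and Robo2 bind Slits. Robo2 had 86.1 units in GPHR F/F;Nes and 175 units in GPHR F/F, a difference of -0.44 ± 0.08, and all 7 measured probes were below 0. Robo1 had 98.9 units in GPHR F/F;Nes and 154 units in GPHR F/F, a difference of -0.05 ± 0.11. Its brightest probe, designed to a RefSeq mRNA, was at -0.47 with 726 units in GPHR F/F;Nes and 1507 units in GPHR F/F. Its 2 dimmest measured probes, designed to cDNA or EST sequences, were at 0.58 and 0.35. Robo3, which lets commissural axons cross the midline, had 25.2 units in GPHR F/F;Nes and 27.8 units in GPHR F/F, a difference of 0.44 ± 0.23. It was 0.15 after loess correction, 0.07 after normexp correction and -0.05 with no filter on dim probes. Genes at a similar level had a median of 0.29.

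Dcc, the netrin-1 receptor, had 87.0 units in GPHR F/F;Nes and 134 units in GPHR F/F, a difference of -0.04 ± 0.09 over 6 probes. Its highest probe, at 0.67, was also its brightest, with 40117 units in GPHR F/F;Nes and 37816 units in GPHR F/F. That probe holds a GAA repeat, and its array coordinate lies on chromosome 7, whereas Dcc lies on chromosome 18. Without that probe Dcc was at -0.19. Across the array, 36 measured probes hold 12 bases of GAA repeat on either strand. Their median was 0.74, against 0.04 for all probes. Of the Unc5 genes, Unc5b had 281 units in GPHR F/F;Nes and 260.0 units in GPHR F/F, a difference of 0.69 ± 0.14. Unc5a had 1189 units in GPHR F/F;Nes and 2315 units in GPHR F/F, a difference of -0.38 ± 0.20. Unc5b is expressed in blood vessels as well as neurons, and Unc5a mainly in neurons. Unc5c had 47.7 units in GPHR F/F;Nes and 71.8 units in GPHR F/F, a difference of -0.01 ± 0.13 that averages opposed probes. Its RefSeq mRNA probes were at -0.42 and -0.23, and its dimmest, an Ensembl transcript probe, was at 0.62. From curated RefSeq mRNA probes alone Unc5c was at -0.32. Unc5d had 10.4 units in GPHR F/F;Nes and 15.1 units in GPHR F/F, a difference of 0.04 ± 0.28 that was below 0 under each other scaling tried.

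Set side by side, several ligands and receptors known to bind each other went the same way and others did not. The pairs named are examples and not a full list. Slit1 (-0.67) and Robo2 (-0.44) were both below 0, as were Sema7a (-0.69) and Plxnc1 (-0.31). Slit2 (0.03) and Robo1 (-0.05) both stood near 0 in the mean over their probes. In their brightest probes Slit2 was at 0.11 and Robo1 at -0.47. Sema3a (-0.16) and Nrp1 (-0.25) were both below 0, as were Ntn1 (-0.15) and Dcc (-0.04). Ntn1 was within its technical error, and so was Dcc over all 6 probes. Without its GAA-repeat probe, which alone gave 0.67, Dcc was at -0.19. Efna1 (0.99) and Epha2 (1.87) were both above 0. Efnb2 (-0.48) and Ephb4 (1.09) were on opposite sides of 0, as were Sema4d (-0.15) and Plxnb1 (0.43), and Sema3e (0.35) and Plxnd1 (-0.61). Sema3f (0.50) and Nrp2 (-0.69) were on opposite sides too. Of these pairs, Sema3e came to lie below 0 with Plxnd1 in its brightest probe and after normexp correction. The same held in curated RefSeq mRNA probes alone and with the stricter filter on dim probes (-0.27 each). With spike-in scaling Sema3e (-0.60), Plxnb1 (-0.52) and Sema3f (-0.45) were all below 0, as was the other gene of each pair. Sema4d came to lie above 0 with Plxnb1 in curated RefSeq mRNA probes alone, and Plxnc1 was at 0.13, apart from Sema7a, with no filter on dim probes. These are differences between 2 arrays, and no pairing was tested.

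Signal level moved with the difference. Of the 42 members at or above the median level of all genes, 12 were above 0 and their median was -0.17, where 44.2% of all such genes were above 0. Of the 26 dimmer members, 15 were above 0 and their median was 0.06, where 69.8% of all such genes were above 0. That is 28.6% of the brighter and 57.7% of the dimmer members. At least 2-fold higher were 2 of the 42 brighter members, Efna2 and Sema3b, against 3.52% of all such genes, and 3 of the 26 dimmer ones, Epha2, Epha1 and Ephb4, against 12.4%. At least 2-fold lower were 1 of the 42 brighter members (Sema4a), against 1.24% of all such genes, and 0 of the 26 dimmer ones, against 1.5%. Across the 68 members the correlation of level with difference was -0.30 (Pearson) and -0.37 (Spearman). Across all genes it was -0.27 and -0.33. Both quantities come from the same 2 arrays, so the values are descriptions.

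**Figure D3:**
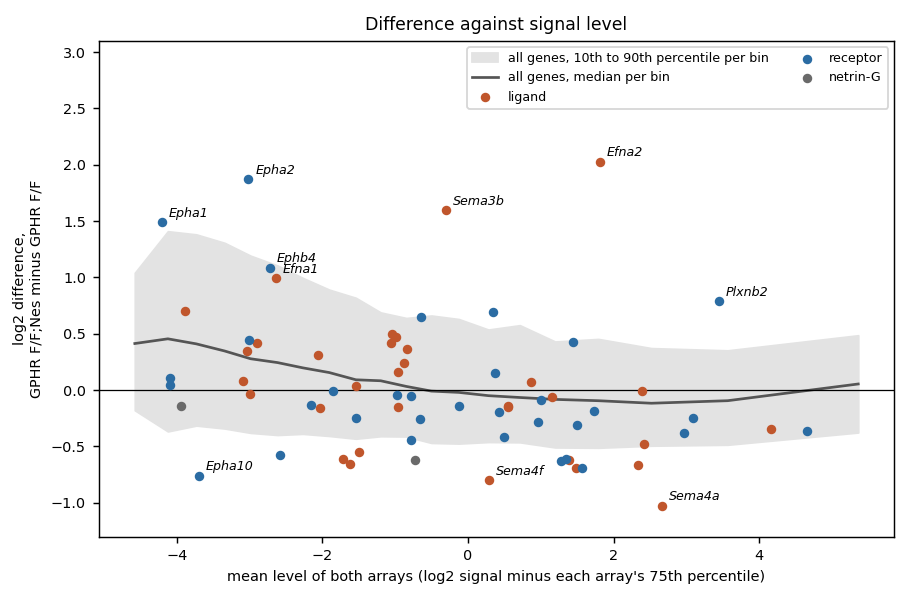
The x axis is the mean level of both arrays (log2 signal minus each array's 75th percentile) and the y axis the log2 difference between the genotypes, positive where GPHR F/F;Nes was higher. The line and band are the median and the 10th to 90th percentile of all genes in 20 bins of level, and the points are the 68 members. Efna2, Sema3b, Plxnb2, Sema4f and Sema4a are among the members outside the band, and Ephb4 and Efna1 lie near its upper edge.

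Probes of a gene often disagreed. Of the 38 members with several measured probes, 19 had all probes on the same side of 0 and 19 on both sides. In 9 genes (Dcc, Robo1, Sema3a, Sema3d, Sema3e, Sema4c, Sema5a, Sema6d and Unc5c) probes on opposite sides of 0 stood over 1 log2 unit apart. In 8 of these 9 the highest probe was the dimmest measured probe of its gene, and Dcc was the exception. In Unc5c the brightest probe was at -0.42 and the dimmest at 0.62. In Sema3e these were -0.27 and 0.97, and in Sema3d they were -0.55 and 0.47. Sema4c followed, with a GT-repeat probe at -0.30 as its brightest and a probe at 0.54 as its dimmest. Sema6d differed in that its brightest probe was above 0 too, at 0.13, with the dimmest at 0.65. In Sema5a the dimmest measured probe was at 1.18 and the brightest, a cDNA or EST probe, at 0.53, while the RefSeq mRNA probe next in brightness was at -0.24. Over all 147 measured guidance probes, the 55 with a level below -2 had a median of 0.04 and the other 92 a median of -0.27.

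**Figure D4:**
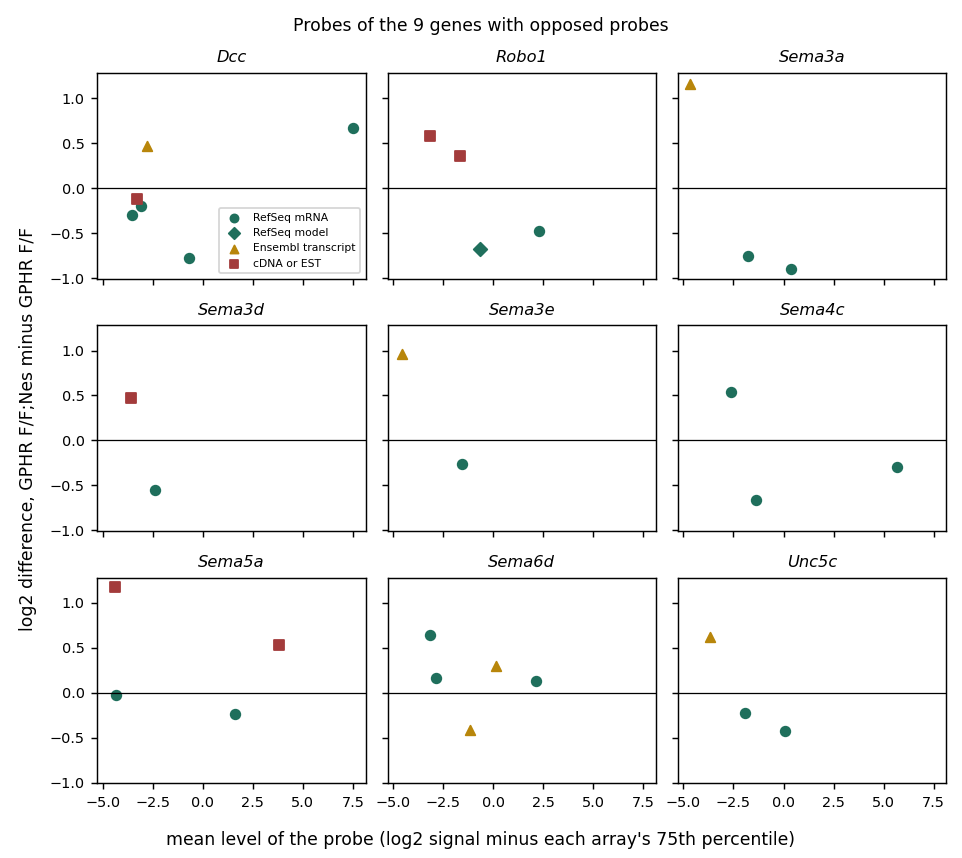
Each panel shows the measured probes of 1 of the 9 genes with opposed probes, the probe's mean level (log2 signal minus each array's 75th percentile) on the x axis and its log2 difference on the y axis, positive where GPHR F/F;Nes was higher. Symbols give the kind of transcript the probe was designed to. The highest point is the leftmost in every panel but Dcc, where it is the rightmost.

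Beyond these families, 71 further genes of guidance signalling (co-receptors, other cues and cytoplasmic effectors) were listed and 69 were measured. None of the 69 was 2-fold apart in either direction, against 7.94% of all genes higher and 1.37% lower. Most of the 69 lay above the median level of all genes. Of all genes at or above that level, 3.52% were at least 2-fold higher and 1.24% lower. The 69 pathway genes had a median of -0.17, with 47 of 69 below 0. The 4 lowest encode adhesion proteins of the cell surface. Cntn1, a contactin of axons, had 2836 units in GPHR F/F;Nes and 7661 units in GPHR F/F, a difference of -0.85 ± 0.14. Dscam, a netrin receptor, had 947 units in GPHR F/F;Nes and 2446 units in GPHR F/F, a difference of -0.79 ± 0.20. Lrrc4c, the ligand of netrin-G1, had 801 units in GPHR F/F;Nes and 2009 units in GPHR F/F, a difference of -0.74 ± 0.20, beside -0.62 for Ntng1. Lrrc4, the ligand of netrin-G2, had 884 units in GPHR F/F;Nes and 2172 units in GPHR F/F, a difference of -0.71 ± 0.20. The 4 highest were Mical1 (0.72 ± 0.12), an enzyme that takes actin filaments apart downstream of plexins, Farp2 (0.58 ± 0.21), a plexin-A exchange factor, the cue Wnt5a (0.53 ± 0.14) and the exchange factor Vav2 (0.50 ± 0.17). In GPHR F/F;Nes their signals were 184 units for Mical1, 108 units for Farp2, 174 units for Wnt5a and 28.5 units for Vav2. In GPHR F/F they were 168 units for Mical1, 109 units for Farp2, 180.1 units for Wnt5a and 30.1 units for Vav2. The raw signals of Farp2, Wnt5a and Vav2 were thus slightly lower in GPHR F/F;Nes, and their differences were above 0 after scaling.

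Markers of other cell types differed on the same arrays. The 3 measured mural markers (of 4) were all above 0, with a median difference of 1.02. Of 6 meningeal and fibroblast markers 5 were above 0, with a median of 2.03 and values between -0.07 (Dcn) and 2.84 (Slc6a13). The 3 measured choroid plexus markers (of 4) were between 1.36 and 5.35. Of 5 endothelial markers only Flt1 (1.35) and Pecam1 (-0.07) were measured, and Cldn5, Tek and Cdh5 had no probe well above background on both arrays. Astrocyte markers had a median of 0.48 with 4 of 5 above 0, oligodendrocyte markers a median of 0.27 with 4 of 4 above 0, and microglial markers a median of 0.41 with 3 of 5 measured. The 3 markers of oligodendrocyte precursors were between -2.46 and -0.28, and the neuron markers between -0.88 and -0.05. Of 3 erythrocyte markers only Hba-a1 was measured, at -0.28.

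The summed level of a list is the sum of its measured signals over the array's 75th percentile. In GPHR F/F;Nes the summed levels were 37.7 for mural, 9.88 for meningeal, 5.58 for choroid plexus, 0.457 for endothelial, 21.1 for astrocyte, 1.89 for oligodendrocyte, 1.92 for microglial, 2.03 for oligodendrocyte precursor, 60.5 for neuron and 0.157 for erythrocyte markers. In GPHR F/F they were 12.1 for mural, 7.30 for meningeal, 0.645 for choroid plexus, 0.245 for endothelial, 15.7 for astrocyte, 1.47 for oligodendrocyte, 1.39 for microglial, 7.35 for oligodendrocyte precursor, 71.5 for neuron and 0.190 for erythrocyte markers. The mural, meningeal, choroid plexus, endothelial (0.64), astrocyte, oligodendrocyte and microglial lists had median differences above 0, as Efna2, Epha2, Sema3b, Epha1 and Ephb4 were. The neuron (-0.15) and oligodendrocyte precursor (-0.67) lists had median differences below 0, as Sema4a, Slit1 and Sema7a were. After loess correction on the level these medians were -0.06 for neuron and -0.66 for oligodendrocyte precursor markers. The lists above 0 then lay between 0.18 (oligodendrocyte) and 1.94 (meningeal). The part of these cell types in the members' differences was not tested.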

How the data were processed

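Total brain RNA of 2 mice was read on 1 slide in 1 scan. The scanner software was Agilent Feature Extraction 11.5.1.1, per the submitters' notes. Its deposited output gives each spot's intensity on a linear scale, background-subtracted and detrended per the file headers. The deposited flags (other values, 0 or 1) mark spots well above background, saturated or outlying. The deposited value table is on the log2 scale. Its columns differ from the log2 scanner signal by a fixed amount on each array, to within 0.001 for 99.9% of probes, with the origin of that amount not given in the sources used here.

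From these, outlier spots were left out, log2 spot values averaged by probe, and the 75th percentile of all probes on the array subtracted. A gene is the mean over its probes well above background on both arrays (36717 of 56603), and its signal in units is their geometric mean. A probe above background on 1 array gives a bound: its value against the higher of the other array's own signal and lowest signal above background (5.06 units in GPHR F/F;Nes and 6.28 units in GPHR F/F). Names come from the array, coordinates from mm9 per the file headers, and RefSeq (GRCm38.p6) matched 73 of 74 names and 32993 probes. With 1 array per genotype nothing was tested. Members and lists were chosen with earlier results of these data known. Values on both arrays are given for members past 2-fold, the 2 largest differences per direction and family, class leaders such as Sema3a and Dcc, and genes with opposed probes. Other pathway genes are named for the 4 largest differences per direction, and marker lists by range and median. The alternatives, 11 planned and 3 chosen after seeing the data, are given at the end. The gene summary was tested on simulated arrays. Python 3.11.15 (numpy 2.4.6, pandas 2.3.3) and R 4.3.3 with limma 3.58.1 were used.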

Additional observations from a re-analysis of the deposited data

How the results depend on the processing

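The deposited value table, the median over probes and kept outlier spots changed the sign of 0 of 68 members, and leaving out repeat probes (chosen after seeing the data) that of 0 of 67. Each array centred on its median gave medians of -0.39 for all members, -0.28 for ligands and -0.42 for receptors, with 3 members at least 2-fold lower (Epha10, Sema4a and Sema4f), where 3.38% of all genes were. Scaling to 8 spike-in probes, chosen after seeing the data and themselves between 0.15 and 1.30 apart, gave medians of -1.06, -0.96 and -1.09, with 1 member at least 2-fold higher (Efna2) and 37 lower, where 0.777% and 38.2% of all genes were. Normexp correction left 2 members at least 2-fold higher and 0 lower, where it left 1.36% and 0.376% of all genes. Its offset of 50 units draws dim genes towards 0, so these counts are no independent check on the dim members. The stricter filter on dim probes, 4 times the lowest signal above background, left 61 members and 2 at least 2-fold higher, where 4.67% of all genes were. The brightest probe gave 2 members at least 2-fold lower (Sema4a and Epha6), where 1.57% of all genes were, and a 1.5-fold threshold 10 higher and 12 lower. Quantile normalization, loess correction, no filter and curated RefSeq mRNA probes alone (chosen after seeing the data) moved these medians by less than the median scanner error of a single member (0.17) and these counts by less than 1.5 times. That error is not the error of a median over many members. Quantile normalization gave medians of -0.21 for all members, -0.15 for ligands and -0.28 for receptors, and no filter gave -0.09, 0.08 and -0.14. The genes counted were not always the same: after quantile normalization and after loess correction Epha10 was the member at least 2-fold lower and Sema4a was not, and Ephb4 was no longer 2-fold higher. With no filter Epha1 was no longer 2-fold higher. Over its alternatives Efna2 lay between 1.07 and 2.12, Sema3b between 0.65 and 1.60, Epha2 between 0.57 and 1.87, Epha1 between 0.19 and 1.49, Ephb4 between 0.14 and 1.48 and Sema4a between -1.98 and -0.90. None of these 6 changed sign. The causes of the shifts other than fewer probes or another centring were not tested. No paired analysis was possible because each genotype had 1 array and the labels carry no replicate numbers. Precision is limited by 1 array per genotype and, for Epha1, Epha2 and Ntn4, by signals near background.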
